A study of Mus musculus with 36 samples.

Results

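The genes described here encode the voltage-gated calcium channels, the voltage-gated sodium channels and the sodium leak channel Nalcn of the mouse. Members were chosen by gene symbol alone, from the calcium channel pore genes Cacna1a to Cacna1s, the Cacna2d, Cacnb and Cacng subunit genes, the Scn pore and beta subunit genes, and Nalcn, and 39 of the 40205 features counted in each library are described. They comprise 10 calcium channel pores, of which 4 are L-type, 3 are of the P/Q-, N- and R-types and 3 are T-type, with 4 alpha2delta subunits, 4 calcium channel beta subunits, 8 gamma subunits or relatives, 9 sodium channel pores, 3 sodium channel beta subunits and Nalcn. RNA was measured in extracellular vesicles (EVs) shed into culture medium and in the neural stem cells (NSCs) that shed them.

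Voltage-gated calcium channels open when the membrane depolarises and let calcium into the cell, where it drives transmitter release, gene expression and the migration of young neurons. Their pore proteins assemble with alpha2delta and beta subunits that carry them to the membrane, while several gamma-family proteins, known as TARPs, instead accompany AMPA receptors. Voltage-gated sodium channels start the action potential with the help of small beta subunits, and Nalcn carries a background sodium current that sets the resting potential.

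The NSCs were neurosphere cultures at passages 7 to 10 from the dorsal telencephalon of C57BL/6J fetuses at gestational day 12.5. The study's methods name the mice as C57BL/6J (Ai14), a line with a Cre-dependent tdTomato reporter that all groups therefore share, while the labels give C57BL/6J alone. Each culture pooled the tissue of the fetuses of 1 sex from 1 pregnancy, and female and male cultures from the same 3 pregnancies (sets 3, 4 and 5) gave 6 cultures, called here F3, F4, F5, M3, M4 and M5. Each culture was grown for 5 days without ethanol (0 mg/dL), with 120 mg/dL (26 mM) or with 320 mg/dL (70 mM), and EV and cell RNA were both taken from the same flasks, so that the design held 18 EV and 18 cell libraries with 3 libraries for each location, sex and dose. No group was untreated tissue, so all 36 libraries describe expanded cultures, and the 3 dose libraries of a culture are not independent cultures.

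Total counts ran from 0.959 to 5.51 M in the EV libraries (median 3.83 M) and from 26.6 to 55.3 M in the cell libraries (median 37.8 M). The 6 EV libraries of F3 without ethanol, F4 at all doses and M3 at 120 and 320 mg/dL held under 2 M counts. The summed counts of 4 Y-linked genes were 6126 to 13270 in cells of male and 19 to 66 in cells of female cultures, and in EVs 17 to 165 and 1 to 8, so no library went against its sex label. Neural stem cell markers summed to a median of 3414 CPM in cells (range 2868 to 4528) and 991 CPM in EVs (683 to 1343), although Sox2 was listed at 0 in all 36 libraries. Neuron markers summed to 829 CPM in cells and 303 CPM in EVs, astrocyte markers to 417 and 75.5 CPM with Aqp4 listed at 0 throughout, and oligodendrocyte lineage markers to 401 and 284 CPM. Most of the neuron sum was Map2, with a mean of 691 CPM in cells and 208 CPM in EVs, so it does not measure neuron content. Markers of muscle (8.44 CPM in cells and 15.9 CPM in EVs), of microglia and blood (0.743 and 3.68 CPM) and of endothelial and mural cells (2.8 and 5.02 CPM) were low in both. CPM here is counts per M of library size after TMM scaling.

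All 39 members had an annotated gene on GRCm39, and RefSeq promoter windows matched 31 of them in 42 windows. The 250 bases before a RefSeq start are shown for 4 members, to set 3 whose RNA was called higher in EVs beside 1 called lower (values below). Of these, Scn11a passed the filter on low counts through its EV values only, so its direction was fixed, as described below. They were placed on GRCm39 by exact match, run 5′ to 3′ on the strand of the gene, and carry each CpG dinucleotide in capitals.
Scn9a promoter, chr2:66465307-66465556, minus strand: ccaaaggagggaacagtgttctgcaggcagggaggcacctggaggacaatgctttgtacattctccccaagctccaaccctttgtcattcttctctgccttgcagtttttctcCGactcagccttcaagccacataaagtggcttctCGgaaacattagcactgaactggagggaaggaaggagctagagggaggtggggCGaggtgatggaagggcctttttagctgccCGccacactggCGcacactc
Scn11a promoter, chr9:119654523-119654772, minus strand: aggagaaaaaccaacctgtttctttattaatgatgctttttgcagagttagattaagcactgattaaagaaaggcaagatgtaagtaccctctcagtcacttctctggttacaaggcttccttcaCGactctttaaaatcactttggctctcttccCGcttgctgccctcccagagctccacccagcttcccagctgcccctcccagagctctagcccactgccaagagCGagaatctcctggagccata
Cacna1i promoter, chr15:80171189-80171438, plus strand: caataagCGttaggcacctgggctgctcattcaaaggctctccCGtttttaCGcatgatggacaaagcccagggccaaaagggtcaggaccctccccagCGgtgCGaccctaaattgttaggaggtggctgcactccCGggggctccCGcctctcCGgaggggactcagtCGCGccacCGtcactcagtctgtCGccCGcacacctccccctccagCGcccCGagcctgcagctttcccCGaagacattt
Cacng5 promoter, chr11:107805882-107806131, minus strand: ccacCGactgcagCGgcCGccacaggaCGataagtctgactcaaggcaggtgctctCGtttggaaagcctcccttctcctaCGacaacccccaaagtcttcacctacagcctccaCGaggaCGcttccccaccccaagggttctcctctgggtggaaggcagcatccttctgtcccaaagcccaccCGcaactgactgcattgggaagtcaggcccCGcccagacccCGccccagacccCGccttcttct
The Scn9a and Scn11a windows hold 5 and 3 CpG dinucleotides, against 16 for Cacna1i and 12 for Cacng5, where member windows as a whole hold from 0 to 50. The Cacng5 window lies 5149 bases inside the start of the GENCODE gene, with 14 of its bases in an exon, and a further RefSeq window of Cacng5 holds 2 CpG. Over all member windows, 16 of 42 (38.1%) reached an observed over expected CpG ratio of 0.6, against 34.0% of all 32841 windows. The GC box letters GGGCGG, searched on both strands, lay in 15 (35.7%) against 32.7%, CCAAT in 10 (23.8%) against 33.9% and TATAAA in 2 (4.76%) against 12.4%, with overlaps between motifs allowed. Sodium channel pore windows reached the CpG ratio in 1 of 10 cases (Scn8a), and the alpha2delta windows in 3 of 3. These are descriptions of letters in a window and were not tested.

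**Figure D1:**
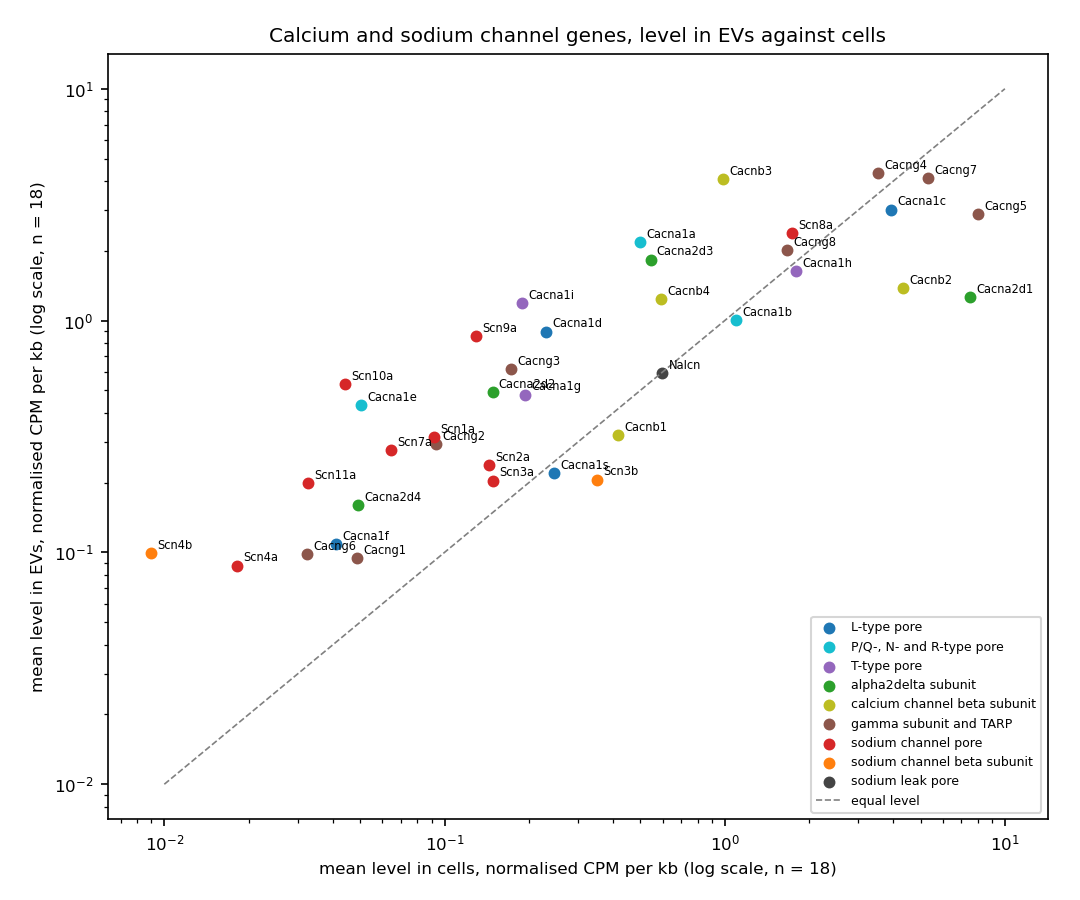
Mean level in EVs (vertical axis) against mean level in cells (horizontal axis) for 38 channel genes, each over 18 libraries in normalised CPM per kb of exon on log scales, with points coloured by role, a dashed line of equal level, and Scn2b left out because it was listed at 0. Cacng5 and Cacna2d1 lie farthest to the right at 8.02 and 7.52 CPM per kb in cells, and Cacng4, Cacng7 and Cacnb3 lie highest in EVs at 4.31, 4.13 and 4.07 CPM per kb.

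The most abundant of the members described in cells, per kb of exon, were Cacng5 (8.02 ± 3.15 CPM per kb, SD over 18 libraries), an AMPA receptor-associated gamma family member, Cacna2d1 (7.52 ± 4.95), the alpha2delta subunit that binds gabapentin, and Cacng7 (5.33 ± 0.817), another AMPA receptor partner. In EVs the order of levels among the members described was led by Cacng4 (4.31 ± 1.36 CPM per kb), also a TARP, Cacng7 (4.13 ± 1.27) and Cacnb3 (4.07 ± 1.72), a cytosolic subunit of the calcium channel. The steps between neighbours named here were narrower than both of their SDs, except that the step from Cacna2d1 to Cacng7 in cells was narrower than the SD of Cacna2d1 and wider than that of Cacng7. Summed over the 39 members, EVs held a median of 397 CPM (317 to 565) and cells 488 CPM (248 to 812), so the ranges overlapped. Scn2b was listed at 0 in all 36 libraries. Median counts were under 10 for 19 of the 39 members in EVs and for 7 in cells, so much of the family was measured in EVs from a handful of reads. Across the 35 members tested for EV against cell, levels per kb in cells and EVs rose together (Spearman's rho 0.826, n = 35 genes that share libraries), as a description with no test.

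Comparing EVs with their cells of origin asked which channel transcripts were over- or under-represented in vesicles. Of the 39 members, 35 had enough counts to test, and 28 of these differed between EVs and cells (edgeR's quasi-likelihood test, Benjamini-Hochberg adjusted p under 0.05 over all features), 21 higher and 7 lower in EVs. The background was wide, since 81.8% of all 17758 features tested were called, 38.1% higher and 43.7% lower. The median log2 fold change of EV over cell was 1.41 for the members and −0.14 for all features. The split depended on the scaling of the libraries. With median-of-ratios size factors, which moved the median of all features to 0.22, 24 members were higher and 4 lower (45.8% and 35.4% of all features), and with plain library totals, which moved it to −0.65, 18 were higher and 11 lower (29.4% and 53.8%). With every library thinned to the smallest total only 14 members were tested, 7 higher and 3 lower (38.1% and 39.5% of features). The contrast with the background was smallest with DESeq2, run without the filter on low counts, which called 27 members higher and 3 lower of 38 (54.8% and 20.4% of 30942 features) with a median of 1.85 for the members and 1.73 for all features. Without the filter, edgeR gave medians of 1.13 and 0.46.

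The filter on low counts bore on these numbers. A gene had to reach 0.624 CPM in at least 8 libraries, and 1 count in the smallest EV library was already 1.04 CPM. There were 6 members (Cacna1f, Cacng2, Scn4a, Scn7a, Scn10a and Scn11a) that passed through their EV values only and therefore had to be higher in EVs. Among the 29 that passed through their cell values, 15 were called higher and 7 lower with a median of 0.44, beside 27.2% higher and 52.7% lower with a median of −0.49 over the 14677 features that passed the same way. Cacng1, Cacng6, Scn2b and Scn4b did not pass. Exons of 20 of the 39 members overlap an exon annotated on the opposite strand, and the reads of such pairs may not have been told apart.

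Position within the range of cell levels went with direction. Of the 9 members under 0.1 CPM per kb in cells all 9 were higher in EVs, where 93.5% of all features at that level were. The 6 members that passed the filter through EVs only all lay in this group, so their direction was fixed. Only Cacna1e, Cacna2d4 and Scn1a had passed through their cell values, and the features at that level were not split by filter path. Of the 9 members between 0.1 and 0.3 CPM per kb, 7 were higher and 0 lower, beside 66.0% and 9.36% of features. Between 0.3 and 1 CPM per kb, 4 of 7 members were higher and 2 lower with a median of 0.94, beside 39.8% and 30.6% of features and a median of 0.12. Between 1 and 3 CPM per kb, 1 of 4 members was higher and 0 lower with a median of 0.07, beside 24.9% and 54.7% of features and a median of −0.49. Above 3 CPM per kb, none of 6 members was higher and 5 were lower with a median of −0.97, beside 14.4% and 72.4% of features and a median of −1.03. The rank correlation of cell level with log2 fold change was −0.745 over the 35 members and −0.614 over 16307 features, which share the cell counts on both axes. The 35 members include the 6 whose direction the filter fixed.

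**Figure D2:**
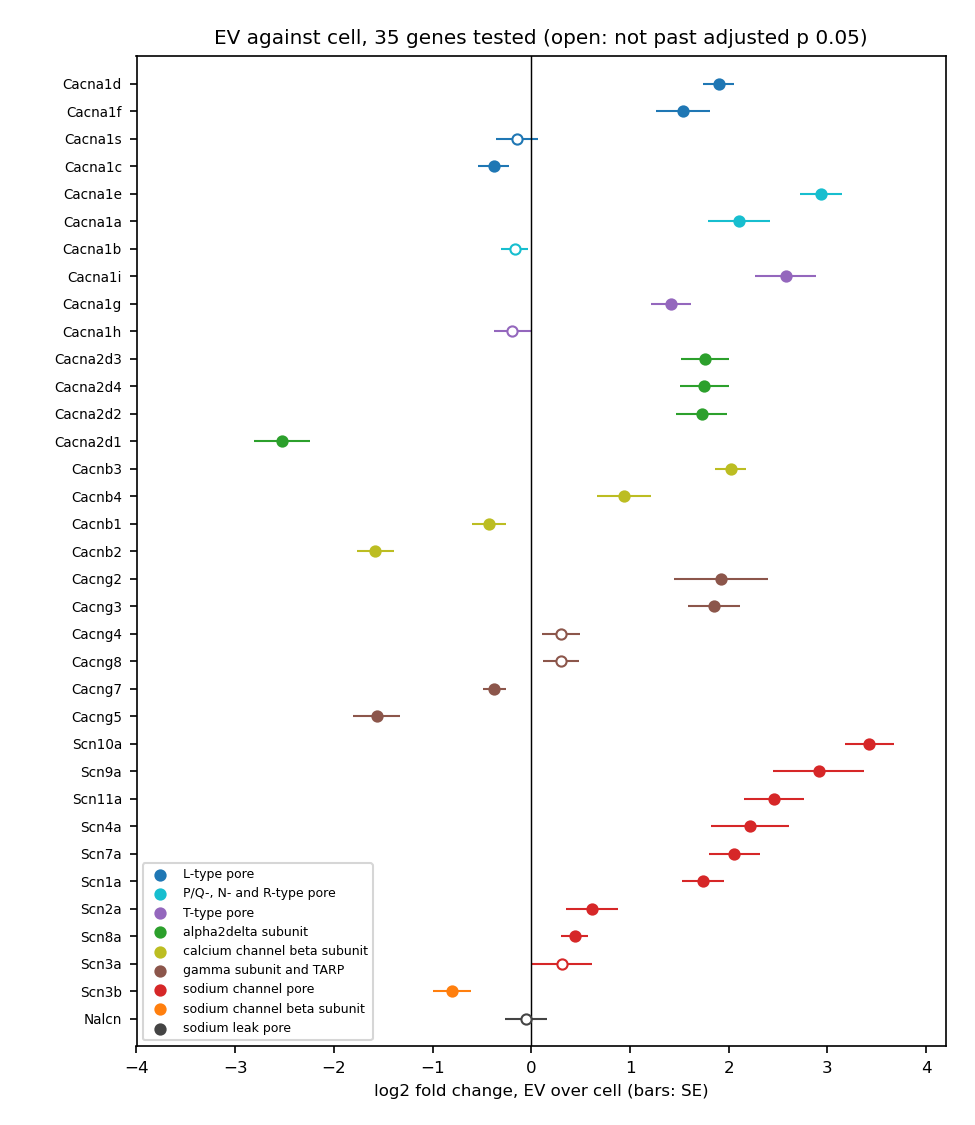
Log2 fold change of EV over cell for the 35 members tested, grouped by role, with points for estimates and bars of 1 SE (edgeR), and open points for members not past the adjusted threshold. Scn10a is highest at 3.43 and Cacna2d1 is lowest at −2.53.

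Of the 9 sodium channel pores described, Scn4a, Scn7a, Scn10a and Scn11a passed the filter through their EV values only, so that their direction was fixed by it. Among the 5 that passed through their cell values, 4 were called higher in EVs and 0 lower, beside 27.2% and 52.7% of features that passed the same way. Scn10a, a pore of peripheral sensory neurons, lay between 1.02 and 16.6 CPM in EVs (median 3.21, 2 to 31 counts) and between 0.122 and 1.32 CPM in cells (median 0.322). The ranges met only at the F3 cell library at 320 mg/dL, which was above the lowest EV library, and the log2 fold change was 3.43 (SE 0.25, 6 of 6 cultures), the largest of any member described. Scn9a, also known from sensory neurons, lay between 0.806 and 61.3 CPM in EVs (median 6.66) and between 0.0856 and 4.93 CPM in cells (median 1.05), with ranges that overlapped, and its log2 fold change was 2.91 (SE 0.46). Scn11a, whose CpG-poor window is shown above, was 2.46 higher on the log2 scale (SE 0.30, 5 of 6 cultures) from a median of 2 counts in EVs.

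Scn1a, the pore mutated in Dravet syndrome, was 1.74 higher on the log2 scale (SE 0.21, 6 of 6 cultures). Scn2a (0.62, SE 0.27) and Scn8a (0.44, SE 0.13), which carry the axonal sodium current, passed the threshold, but with each culture and dose as a replicate block they did not (0.23 with adjusted p = 0.415 and 0.19 with adjusted p = 0.207 by edgeR), and Scn8a turned to −0.075 with library totals. Over all 11 alternatives run for Scn2a, its call was lost in 8. Scn3a, the pore most used before birth, was at 0.31 (SE 0.30) and was not called. Scn7a, an atypical channel that senses sodium, was at 2.06 (SE 0.26), and Scn4a, the skeletal muscle pore, at 2.21 (SE 0.39), higher in 4 of 6 cultures with a median of 1 count in EVs.

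Among calcium channel pores, Cacna1f passed the filter through its EV values only, and of the 9 others 5 were called higher in EVs and 1 lower. Cacna1e, the R-type pore, lay between 2.73 and 28.2 CPM in EVs (median 8.17, 2 to 72 counts) and between 0.744 and 1.68 CPM in cells (median 1.35). The ranges did not overlap, and its log2 fold change was 2.94 (SE 0.21, 7.65-fold, adjusted p = 3.03e-15 by edgeR, 6 of 6 cultures), the largest of the calcium channel pores. Cacna1a, the P/Q-type pore of presynaptic terminals, was 2.10 higher (SE 0.31), with EV values from 6.32 to 210 CPM and cell values from 5.94 to 15.6 CPM. These ranges overlapped. Its EV values differed with depth, with a median of 11.1 CPM in the 6 libraries under 2 M counts and 40.9 CPM in the other 12. The median in cells was 8.42 CPM. Cacna1b, the N-type pore of the same terminals, was not called (−0.17, SE 0.14).

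The T-type pores, which open near the resting potential, split in the same way. Cacna1i was higher in EVs by 2.58 on the log2 scale (SE 0.31) and Cacna1g by 1.41 (SE 0.20), both in 6 of 6 cultures. Cacna1h, the most abundant of the 3 in cells at 1.80 CPM per kb, was not called (−0.19, SE 0.19). Of the L-type pores, Cacna1d was 1.90 higher (SE 0.16, 6 of 6 cultures) and Cacna1f, best known from the retina, 1.54 higher (SE 0.27). Cacna1c, the main L-type pore in cells at 3.94 CPM per kb, was lower in EVs (−0.38, SE 0.16). This call was lost with median-of-ratios factors (−0.01), with DESeq2, without set 4 (−0.31), without set 5 (−0.25) and with control libraries only (−0.40). The Cacna1c change turned to 0.26 after thinning. Cacna1s, the skeletal muscle pore, was not called (−0.14, SE 0.22).

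The alpha2delta subunits moved in opposite directions. Cacna2d1 lay between 40.6 and 376 CPM in cells (median 145, 2122 to 19221 counts) and between 10.3 and 44.8 CPM in EVs (median 31.0, 10 to 148 counts). The ranges met only where the F5 EV library at 320 mg/dL, at 44.8 CPM, lay above the M3 cell library without ethanol, at 40.6 CPM, and the gene had the largest fall of any member (−2.53, SE 0.29, 5.76-fold, adjusted p = 4.04e-10 by edgeR, lower in 6 of 6 cultures). Its culture means in cells ran from 54.3 CPM in M3 to 357 CPM in M4, and in EVs from 11.5 CPM in M3 to 39.6 CPM in F5. The 6 EV libraries under 2 M counts lay between 10.5 and 34.1 CPM and the other 12 between 10.3 and 44.8 CPM. Cacna2d2, Cacna2d3 and Cacna2d4 were higher in EVs by 1.73 (SE 0.26), 1.76 (SE 0.24) and 1.75 (SE 0.25) on the log2 scale.

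**Figure D3:**
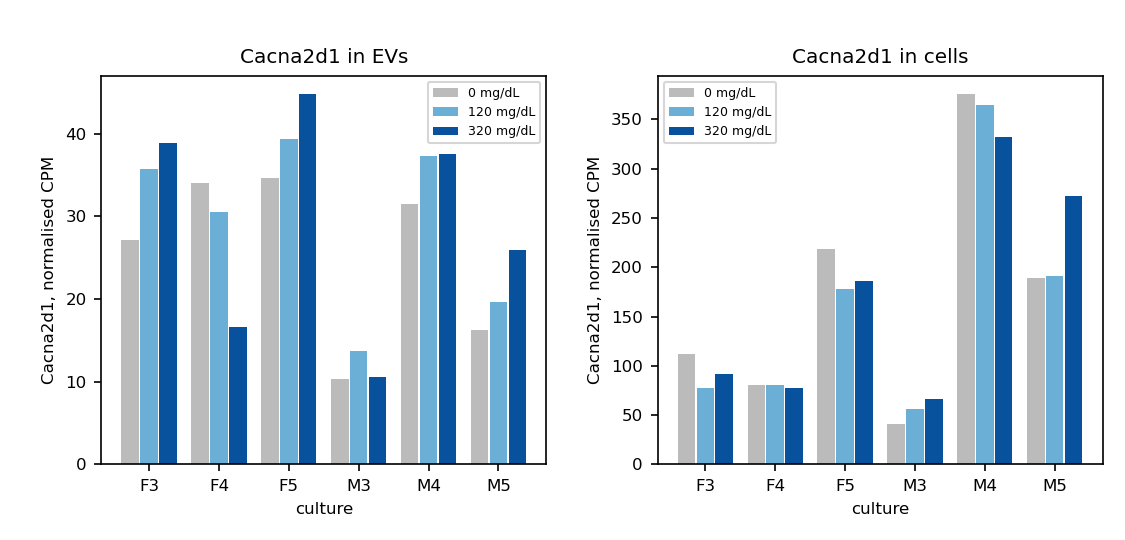
Cacna2d1 in normalised CPM in each of the 36 libraries, with EV libraries on the left, cell libraries on the right and 1 bar for each culture and ethanol dose, on linear axes whose scales differ between the panels. The EV libraries lie between 10.3 and 44.8 CPM and the cell libraries between 40.6 and 376 CPM, with M3 lowest at both locations.

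The beta subunits, which sit in the cytosol and chaperone the pore, split evenly. Cacnb2 fell by 1.58 on the log2 scale (SE 0.19, adjusted p = 1.05e-09 by edgeR, 6 of 6 cultures), from 22.2 to 144 CPM in cells (median 64.3) to 10.9 to 28.8 CPM in EVs (median 21.0), and these ranges overlapped at their ends. Cacnb3 was 2.02 higher (SE 0.15, 6 of 6 cultures) and Cacnb4 0.94 higher (SE 0.27), a call that was lost with library totals (0.42), control libraries only (0.78) and counts summed over doses (0.47, adjusted p = 0.144 by edgeR). Cacnb1 was lower by a small amount (−0.43, SE 0.17), and its call was lost without set 3 (adjusted p = 0.0824) or set 5 (adjusted p = 0.165 by edgeR). The Cacnb1 call was also lost with median-of-ratios factors, with DESeq2 and with control libraries only.

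Of the 5 gamma subunits and TARPs that passed through their cell values, 1 was higher, 2 were lower and 2 were not called, and Cacng2 passed through its EV values only. Cacng5 lay between 15.7 and 63.2 CPM in cells (median 32.7) and between 4.59 and 36.9 CPM in EVs (median 8.78), and fell by 1.56 on the log2 scale (SE 0.24, adjusted p = 2.28e-07 by edgeR, 6 of 6 cultures) with overlapping ranges. Cacng7 was 14.6 to 26.4 CPM in cells (median 21.4) and 9.5 to 26.8 CPM in EVs (median 15.8), a difference of −0.37 (SE 0.12). This difference was not called with median-of-ratios factors (−0.01), with DESeq2 or without set 4, and turned to 0.31 after thinning. Cacng2 (1.92, SE 0.48) and Cacng3 (1.85, SE 0.26), TARPs of mature synapses, were higher in EVs, although Cacng2 was not called with control libraries only (0.91, adjusted p = 0.339 by edgeR). Cacng4 (0.30, SE 0.19) and Cacng8 (0.30, SE 0.18) were not called.

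The sodium channel beta subunit tested, Scn3b, was lower in EVs (−0.80 on the log2 scale, SE 0.20, 5 of 6 cultures), but was not called by DESeq2 (−0.45, adjusted p = 0.0573). Nalcn was not called. It lay between 4.64 and 23.0 CPM in cells (median 9.03) and between 4.69 and 21.7 CPM in EVs (median 9.70), and its log2 difference was −0.05 (SE 0.22).

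Genes that work with these channels were read from lists of genes grouped by function. Of the NALCN complex, Fam155a (2.09) and Unc80 (0.46) were higher in EVs and Unc79 (−0.44) was lower, so the 3 partners that were tested moved apart. Calcium channel regulators gave 9 higher and 11 lower of 22, among them the kinase subunit Camk2b (5.57) and the calcium sensor Ncs1 (3.01) above, and the small GTPase Gem (−3.19) and Camk2d (−2.54) below. Camk2b was very high in EVs with an SD near its mean (7746 ± 6667 CPM, against 147 ± 47.0 CPM in cells). What its EV counts stem from was not tested. Pumps and exchangers that remove calcium gave 9 higher and 4 lower of 16, with Atp2b3 at 6.62 and Atp2b1 at −2.97, both plasma membrane calcium pumps. Mean levels in cells were 0.281 ± 0.122 CPM for Atp2b3 and 0.271 ± 0.104 CPM for Atp2c2, also called higher. Both lay under the 0.624 CPM of the filter, so the filter may have fixed their direction. Genes of intracellular release and store entry gave 6 higher and 6 lower of 17, with the ryanodine receptor Ryr1 at 4.98 and the store sensor Stim2 at −2.25. The SD of Ryr1 in EVs was above its mean (31.9 ± 37.3 CPM, against 0.938 ± 0.318 CPM in cells). Sodium channel regulators gave 6 higher and 3 lower of 12, with the channel-binding growth factor homologue Fgf13 at 2.29, the axonal spectrin Sptbn4 at 2.03 and the adhesion molecule Nrcam at −2.94. Against 38.1% higher and 43.7% lower of all features, the lists are given as counts with no test. Neither the lists nor these features were split by filter path.

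Ethanol was compared with the control medium within cultures, at 120 and at 320 mg/dL, with the 3 doses of a culture blocked and the control libraries shared by both doses. No channel gene was called at either dose, in EVs or in cells. In EVs 29 members were tested and edgeR called 0 at 120 and 0 at 320 mg/dL, beside 0.00758% and 0.0758% of 13193 features. At an unadjusted p under 0.05 were 1 and 2 members, beside 784 and 1429 features. DESeq2 gave an adjusted p to only 5 and 9 members and called 0 of these (0.299% of 4350 and 5.42% of 4924 features). Without the filter on low counts, edgeR called Cacna1a at both doses and Cacnb4 at 320 mg/dL in EVs. In that setting 157 and 207 of 29604 features were called at 120 and 320 mg/dL. In cells 34 members were tested and edgeR called 0 at each dose, as it did for 0% of 18725 features. At an unadjusted p under 0.05 were 3 and 4 members, beside 476 and 1575 features. DESeq2 called 0 of 38 and 0 of 33 members in cells (0.0131% and 0.598% of features).

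**Figure D4:**
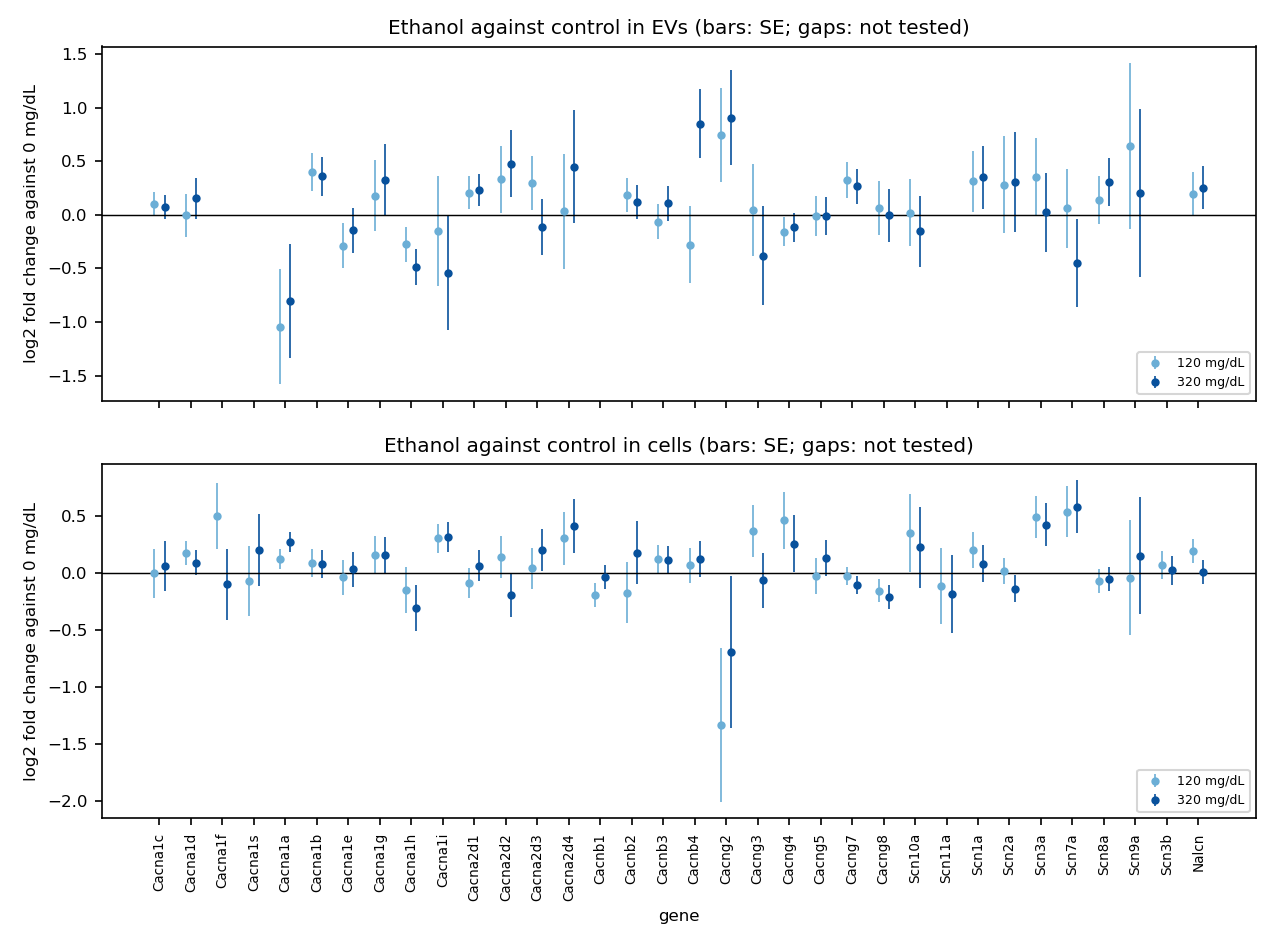
Log2 fold change of 120 and of 320 mg/dL ethanol over control for the members tested, in EVs and in cells, with each point 1 gene and bars of 1 SE (edgeR, culture as a block). No gene passed the adjusted threshold; in EVs estimates run from −1.04 to 0.91 and in cells from −1.33 to 0.58.

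Cacna1a had the widest fall in EVs, with means of 63.3 ± 75.8, 29.1 ± 24.6 and 32.8 ± 22.3 CPM (SD, n = 6) at 0, 120 and 320 mg/dL and log2 fold changes of −1.04 and −0.81 that were not called. The direction at 320 mg/dL rested on set 5, which holds the M5 library without ethanol at 210 CPM, since without that set the change was 0.13. The comparison at 120 mg/dL shares that control library, and its change ran from −1.57 to −0.27 over the alternatives. Cacnb4 was at 9.22 ± 6.04, 7.91 ± 4.27 and 16.7 ± 14.1 CPM in EVs at the same doses, and these groups overlapped. Its log2 fold change at 320 mg/dL was 0.85 (SE 0.33, 95% interval 0.22 to 1.49, adjusted p = 0.324 by edgeR, higher in 4 of 6 cultures). Cacna2d1, the member lowest in EVs relative to cells, held 25.6 ± 10.1, 29.4 ± 10.4 and 29.1 ± 13.6 CPM in EVs and 169 ± 121, 158 ± 116 and 171 ± 112 CPM in cells (SD, n = 6). Its largest estimate was 0.23 (SE 0.15), in EVs at 320 mg/dL.

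The smallest adjusted p among members in EVs was 0.282 by edgeR, for the T-type pore Cacna1h at 320 mg/dL (−0.49, SE 0.17, lower in 5 of 6 cultures, 22.2 ± 15.2 CPM at 0 and 14.8 ± 6.18 CPM at 320 mg/dL, n = 6). In cells it was 0.375 by edgeR, for Cacna1a (0.28, SE 0.08, 95% interval 0.11 to 0.44), higher in 5 of 6 cultures at 320 mg/dL. The EV to cell ratio was tested for 37 members and edgeR called 0 at both doses, beside 0.00875% and 0% of 22854 features. At an unadjusted p under 0.05 were 3 and 2 members, beside 715 and 1064 features. DESeq2 called 0 of 38 members at 120 mg/dL (0.00644% of features), and at 320 mg/dL it gave an adjusted p to only 2 members and called 0 (2.17% of 2759 features). The lack of a call does not show that a response was absent.

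Female and male cultures were compared within EVs and within cells, taking each library as a sample as the study did. In EVs, 26 members were tested and 8 were higher and 1 lower in females, beside 7.59% higher and 4.45% lower of 12252 features, 12% in all. The 3 libraries of a culture come from 1 culture, and summing counts over doses leaves 3 cultures against 3. After that, edgeR called 0 of 33 members and 0% of features in EVs, and 0 of 37 members and 0.0334% of features in cells. At an unadjusted p under 0.05 were 11 members and 2229 of 14847 features in EVs, and 7 members and 1398 of 20972 in cells. DESeq2 on the single libraries called 13 members in EVs (15% of features) and 10 in cells (9.91%). With pregnancy as a replicate block the count was 17 (28.3% of features) in EVs and 13 (16.5%) in cells. Without the 6 EV libraries under 2 M counts, edgeR called 0 members in EVs and 33 of 12337 features. At an unadjusted p under 0.05 were 10 members and 2880 features. Leaving out set 3, 4 or 5 gave 16, 2 and 0 members, beside 3477 of 12878, 423 of 12306 and 3 of 11170 features. Without set 5, 6 members and 2206 features had an unadjusted p under 0.05.

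The R-type pore Cacna1e lay between 6.18 and 28.2 CPM in female EVs (median 19.4, n = 9) and between 2.73 and 9.4 CPM in male EVs (median 5.45, n = 9). The ranges overlapped, females were higher in 9 of 9 pairs of the same pregnancy and dose, and the log2 difference was 1.68 (SE 0.33, adjusted p = 0.0121 by edgeR). Scn10a differed by 1.80 (SE 0.40), from 2.95 to 16.6 CPM in females (median 8.64, 4 to 31 counts) against 1.02 to 3.46 CPM in males (median 2.58, 2 to 16 counts), with overlapping ranges and 9 of 9 pairs higher in females. Nalcn differed by 0.98 (SE 0.25), from 8.23 to 21.7 CPM in females (median 11.9) against 4.69 to 10.2 CPM in males (median 8.39), with overlapping ranges and 9 of 9 pairs higher in females.

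The other members called higher in female EVs were Scn3a (1.46, SE 0.37, female median 2.94 and male 1.56 CPM), Cacnb4 (1.35, SE 0.38, 14.7 and 4.87 CPM), Cacna1d (1.06, SE 0.31, 18.6 and 8.43 CPM), Cacna2d3 (1.05, SE 0.34, 23.6 and 14.7 CPM) and Cacng7 (0.57, SE 0.17, 16.8 and 14.7 CPM). Cacnb3 was the member called lower, at 7.05 to 24.3 CPM in females (median 14.1) and 16.4 to 38.9 CPM in males (median 23.1), a log2 difference of −0.64 (SE 0.20), with females higher in 2 of 9 pairs. The median log2 difference over the 26 members was 0.61.

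**Figure D5:**
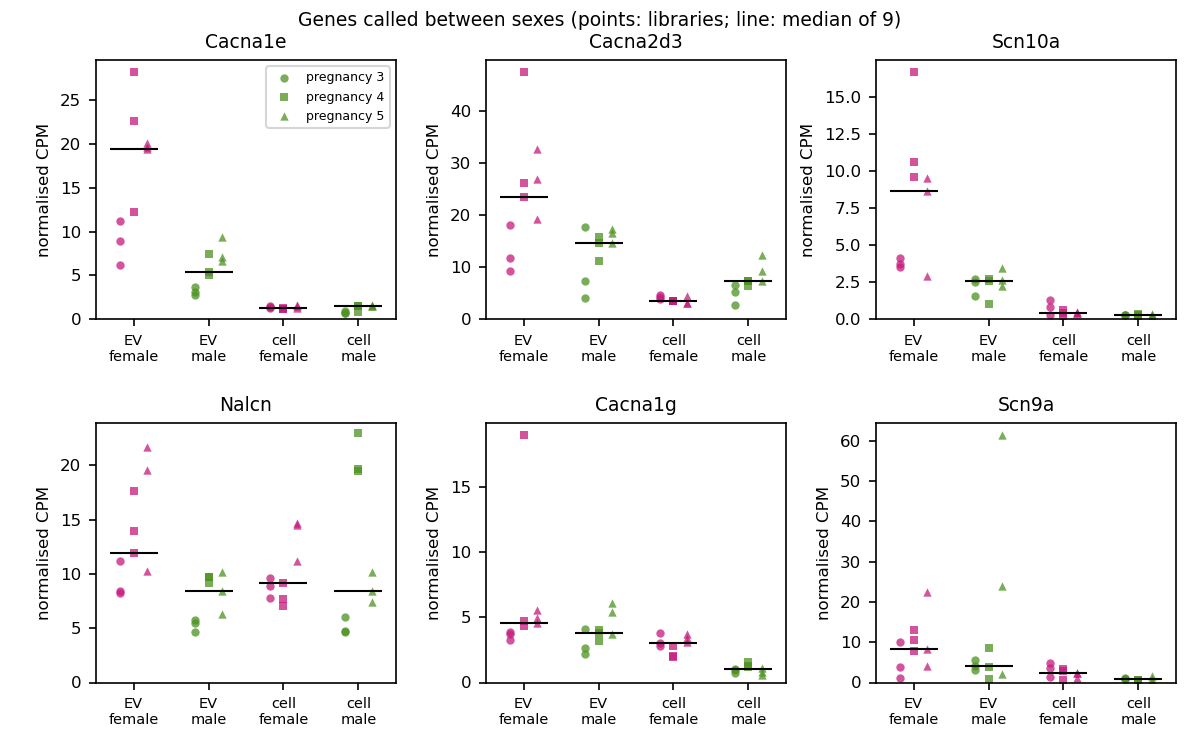
Normalised CPM, on linear axes, of 6 members called between the sexes in EVs or in cells, with 1 point for each library (pink for female, green for male, the shape giving the pregnancy) and a line at the median of 9 libraries. Of these members Cacna1g in cells is the one whose female (1.92 to 3.83 CPM) and male (0.599 to 1.60 CPM) libraries do not overlap at that location.

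In cells, 34 members were tested and 4 were higher and 1 lower in females, beside 3.19% and 2.51% of 18048 features, 5.7% in all. Cacna1g, a T-type pore, lay between 1.92 and 3.83 CPM in female cells (median 3.06) and between 0.599 and 1.60 CPM in male cells (median 1.05). The sexes did not overlap, 9 of 9 pairs were higher in females, and the log2 difference of 1.55 (SE 0.19, adjusted p = 0.000534 by edgeR) was called without each set in turn, but not with counts summed over doses (1.45, adjusted p = 0.396). In EVs the same gene was higher in females in 6 of 9 pairs.

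Scn9a was 1.68 higher in female cells (SE 0.43), from 0.675 to 4.93 CPM (median 2.42) against 0.0856 to 1.55 CPM (median 0.763), with overlap. Scn7a (0.75, SE 0.21) and Cacna1a (0.61, SE 0.16, 7.14 to 15.6 CPM against 5.94 to 9.1 CPM, 9 of 9 pairs) were also higher. Of the 9 alternatives run for each gene between sexes in cells, the Scn7a call was lost in 7, with median-of-ratios factors and without each set among them, that of Cacna1a in 5, that of Scn9a in 4 and that of Cacna2d3, described next, in 3. Cacna2d3 was lower in female cells, at 3.15 to 4.73 CPM (median 3.62) against 2.83 to 12.3 CPM (median 7.27), a log2 difference of −0.88 (SE 0.20), with females higher in 1 of 9 pairs. In EVs the same gene was higher in females in 9 of 9 pairs, and the difference between the locations was not tested.

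The 6 cultures also differed widely from each other, within a sex as well as between the sexes. In cells, the highest culture mean of Cacng2 was 15.3 times the lowest (F5 1.72 and M4 0.113 CPM), that of Cacna2d1 6.58 times (between the male cultures M4 and M3), that of Cacna2d2 6.04 times (F5 2.11 and M3 0.348 CPM) and that of Scn9a 5.79 times (F3 3.35 and M4 0.578 CPM). M3 cells were lowest for Cacna2d1 and Cacna2d2. In EVs the widest range among the members described that were above 0 in every culture was that of Scn11a, at 11.8 times (F5 2.46 and M3 0.208 CPM), followed by Scn7a at 7.23 times (F5 4.05 and M3 0.559 CPM) and Scn9a at 6.90 times (M5 29.2 and M3 4.23 CPM). At 0, 120 and 320 mg/dL, M3 EVs held only 2, 0 and 0 counts of Scn11a and 1, 1 and 0 of Scn7a. M4 cells held 5, 5 and 4 counts of Cacng2, so the ratios of these genes rest on few reads. Each culture is 1 pregnancy and 1 sex, so the spread between pregnancies, sexes and passages cannot be told apart in a single culture.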

How the data were processed

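RNA from 18 EV and 18 cell samples was sequenced after ribosomal RNA depletion with a stranded kit in a single pooled run. Per the labels and the study's methods, the authors trimmed and deduplicated reads, aligned them with STAR to mm39 and deposited raw counts per gene from HTSeq. The annotation release and strand setting are not given in the sources used here. Counts were tested with edgeR 4.0.16 in R 4.3.3 (filterByExpr with a minimum count of 10 and a minimum total of 15, TMM factors, quasi-likelihood fits) over all features, and a gene was called at a Benjamini-Hochberg adjusted p under 0.05. EV against cell used all 36 libraries with sex and dose as terms, ethanol used the culture as a block within each location, the EV to cell ratio used an interaction with the EV and cell pair as a block, and sex used dose as a term. The scripts were tested on simulated data with known 2-fold changes, in features with a mean of at least 10 counts. Recovery was 99.5% for EV against cell, 64.5% for 320 mg/dL in EVs and 44.0% for the ratio at 320 mg/dL. False calls ran from 2.99% of calls (320 mg/dL in cells) to 11.1% (the ratio at 320 mg/dL). Normalised CPM are counts over TMM library sizes, and CPM per kb divides by GENCODE vM39 exon length.

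Control and ethanol libraries of a culture deviated together (median r 0.605 in cells, over 0.1 in 12 of 12 pairs, and 0.179 in EVs, 11 of 12). EV and cell libraries of a culture and dose came from the same flasks (median r 0.0632, 3 of 18 pairs over 0.1), and female and male cultures of a number shared a pregnancy (0.329 in cells and 0.0865 in EVs). No source says that libraries of a group came from further separate cultures beyond the 3 pregnancies, so p-values over libraries of a culture may measure technical spread. Alternatives were DESeq2 1.42.0, 2 other scalings, no filter, thinning, leaving out each set, blocks, control libraries only, counts summed over doses and, chosen after seeing the data, leaving out EV libraries under 2 M counts. Named genes were all members, with values by library for those called in ethanol, ratio or sex comparisons, the 3 largest changes in each direction and the 3 highest levels per location. The members and gene lists were chosen with earlier results of these data known, and 2 further genes that meet the naming rule are not reported here. Promoter windows are from RefSeq (GRCm38.p6 table).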

Additional observations from a re-analysis of the deposited data

Results flagged for a closer look

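Within groups of 6 libraries of a location and dose, 12 of 102 tested sets of values held 1 library far from the others. Far means a gap to its neighbour over the range above Dixon's 0.625. The sets cover only the 17 members named for their calls, changes or levels. Dixon's limit gives about 5% for 6 normal values from 1 population. These groups mix female and male cultures, and some values rest on few counts. The share of sets is therefore a description and cannot be held against 5%. All values are normalised CPM.

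Among sodium channel genes, Scn10a in EVs of F4 at 320 mg/dL was at 16.6 CPM (14 counts) against 1.58 to 3.53 CPM in the others. In cells of F3 at 320 mg/dL it was at 1.32 CPM against 0.122 to 0.488 CPM. Scn9a in EVs of M5 at 120 mg/dL was at 61.3 CPM (190 counts) against 0.806 to 10.1 CPM. Scn3a in EVs of F5 at 320 mg/dL was at 5.41 CPM (11 counts) against 0.861 to 2.38 CPM.

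Among calcium channel genes, Cacna1a in EVs of M5 without ethanol was at 210 CPM (970 counts) against 11.2 to 81.0 CPM. It belongs to set 5, without which the difference of this gene between 320 and 0 mg/dL in EVs turned to 0.13. Cacna1e in cells of M3 without ethanol was low, at 0.747 CPM against 1.26 to 1.55 CPM. Cacna1g in EVs of F4 at 320 mg/dL was at 19.0 CPM (16 counts) against 2.64 to 4.92 CPM. Cacnb3 in EVs of M4 at 120 mg/dL was at 38.9 CPM against 9.61 to 20.0 CPM. Cacnb4 was high in EVs of F5 at 120 mg/dL (15.9 CPM against 4.03 to 8.19 CPM) and in cells of M5 at 320 mg/dL (10.9 CPM against 3.40 to 5.69 CPM). Cacng4 in cells of M4 at 120 mg/dL was at 51.9 CPM (2242 counts) against 8.55 to 16.2 CPM. Cacng5 in EVs of M3 without ethanol was at 33.4 CPM (107 counts) against 5.38 to 14.5 CPM.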

How the results depend on the processing

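Of the 28 EV against cell calls, the counts stayed within 1.5 times under every alternative but thinning (10 of 14 tested), and leaving out a set gave 24 to 29. The members' median log2 fold change moved from 1.41 to 1.81 with median-of-ratios factors, 0.85 with library totals, 1.13 with no filter and 0.63 after thinning, and to 1.07 to 1.69 leaving out a set. Directions turned for Cacna1c (0.26) and Cacng7 (0.31) after thinning, for Scn8a with library totals (−0.075) and for Cacna1a at 320 mg/dL in EVs without set 5 (0.13), where leaving out a set gave −1.33 to 0.13. With no filter, edgeR called 1 member in EVs at 120 mg/dL (Cacna1a, −1.09) and 2 at 320 mg/dL (Cacna1a −0.84 and Cacnb4 0.81). Beside them stood 157 and 207 of 29604 features. The causes were not tested.

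Between sexes, the 9 calls in EVs became 3 with library totals, 13 with DESeq2, 0 without EV libraries under 2 M counts, 0 with counts summed over doses and 0 to 16 leaving out a set. The calls over all features, 1475 in the main fit, became 455, 2789, 33, 0 and 3 to 3477 in the same settings. The 5 calls in cells became 3 with no filter, 10 with DESeq2, 0 with counts summed over doses and 3 to 5 leaving out a set. Over all features, 1029 calls in cells became 937, 2071, 7 and 216 to 2063. With pregnancy as a replicate block the members called were 17 in EVs and 13 in cells, beside 3738 and 3091 features. For EV against cell, the replicate block gave 30 calls, without Scn2a and Scn8a. In EVs, 19 of 39 members had a median under 10 counts, which limits what these libraries can show.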
